A study of Mus musculus with 8 samples.

Results

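The class I phosphoinositide 3-kinase (PI3K) subunit genes were followed in tuft cells sorted from the mouse small intestine with and without muscarinic receptor blockade. The 9 members are the 4 catalytic subunits Pik3ca, Pik3cb, Pik3cd and Pik3cg, and the 5 regulatory subunits Pik3r1, Pik3r2, Pik3r3, Pik3r5 and Pik3r6, chosen by name from the 35199 genes listed. Bulk RNA sequencing was performed on Live/EPC-high ZSgreen-positive cells of Dclk1-DTR-ZSgreen mice, a BAC transgenic line in which the Dclk1 promoter drives the reporter in tuft cells. All 8 mice carried this transgene and received an osmotic pump at 8 to 10 weeks of age. The 4 mice of the scopolamine group received the nonselective muscarinic antagonist at 0.5 mg per kg per day for 7 days, and the 4 sham mice received sodium chloride. Each library came from a separate mouse and from 3000 or 4000 cells, so that the spread given is between mice. The comparison asks whether tuft cells carry a different set of PI3K subunit transcripts when acetylcholine cannot signal through muscarinic receptors.

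Class I PI3Ks phosphorylate the membrane lipid PIP2 to PIP3, which recruits kinases such as AKT and PDK1 and exchange factors such as VAV1 to the plasma membrane. Class IA enzymes pair a catalytic subunit (p110alpha, p110beta or p110delta) with an SH2 domain regulatory subunit and are engaged by receptor tyrosine kinases. The class IB enzyme pairs p110gamma with p101 or p84 and is activated by the beta-gamma subunits of heterotrimeric G proteins. The p110delta and p110gamma subunits are best known from leukocytes. Tuft cells are chemosensory epithelial cells that signal through G protein-coupled taste and metabolite receptors.

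The sorted cells carried their defining markers. Dclk1 was at 3430 to 5720 CPM (counts scaled to library size) in scopolamine libraries and 4090 to 5720 CPM in sham libraries, the channel gene Trpm5 at 966 to 1740 and 1050 to 1560 CPM, and the tuft cell transcription factor Pou2f3 at 196 to 424 and 305 to 609 CPM. All 14 tuft markers listed passed the expression filter (filterByExpr in edgeR, which removes genes with few counts), 13 with a lower and 1 with a higher mean with scopolamine, and 0 were called by edgeR or DESeq2. Library totals were 14343362 to 20857433 counts with scopolamine and 25769940 to 41428916 in sham, so that every sham library was deeper. The limit of detection was set at 3 counts, which corresponded to 0.14 to 0.212 CPM with scopolamine and 0.0729 to 0.114 CPM in sham. Sham mice 1 and 3 were amplified from 200 pg of RNA over 15 cycles and all other libraries from 1000 pg over 10 cycles. Markers of other cells were also present in the sorted material. The summed level of 10 enterocyte markers was 3270 to 6940 CPM with scopolamine and 2550 to 6630 CPM in sham, and that of 14 T cell and intraepithelial lymphocyte markers 30.9 to 140 and 5.67 to 167 CPM.

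The leading member of the catalytic subunits was Pik3cg, which encodes p110gamma, the class IB catalytic subunit. Pik3cg lies on the minus strand at chr12:32173473-32208659 (GRCm38, GENCODE M21). It was at 290, 175, 273 and 167 CPM in scopolamine mice 1 to 4 and at 150, 241, 251 and 181 CPM in sham mice 1 to 4. The groups overlapped across most of their range, and no library of either group fell below 150 CPM. Per kilobase of its longest coding transcript, Pik3cg averaged 36.8 ± 9.13 CPM (SD, n = 8), above 90.8% of the genes with a count.

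The ubiquitous class IA catalytic genes were expressed far below Pik3cg. Pik3ca (chr3:32397671-32468486, plus strand), which encodes p110alpha, was at 10, 15.5, 16.4 and 7.05 CPM with scopolamine and at 25.7, 12.8, 27.7 and 6.09 CPM in sham. The highest values were those of sham mice 1 and 3, the libraries amplified from 200 pg. Pik3cb (chr9:99036654-99140621, minus strand), which encodes p110beta, was at 9.77, 16.4, 8.11 and 7.05 CPM with scopolamine and at 11.3, 11.2, 11.9 and 11.2 CPM in sham. The sham mice were close to each other, within a range that the scopolamine mice spanned on either side. Per kilobase, Pik3ca averaged 1.7 ± 0.9 CPM and Pik3cb 1.68 ± 0.434 CPM (SD, n = 8).

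The remaining class IA catalytic gene, Pik3cd (chr4:149649168-149702571, minus strand), encodes p110delta and was at or under the limit of detection in every sham mouse. Its estimated counts were 1, 137, 94 and 64 in scopolamine mice 1 to 4 and 0, 2, 0 and 1 in sham mice 1 to 4. These counts corresponded to 0.0501, 6.41, 6.63 and 3.03 CPM against 0, 0.0486, 0 and 0.0298 CPM. Scopolamine mice 2, 3 and 4 stood clear of every sham mouse, whereas scopolamine mouse 1 lay under the limit of detection with the sham mice. Per kilobase, Pik3cd was at 0.819 ± 0.635 CPM with scopolamine and 0.00399 ± 0.00486 CPM in sham (SD, n = 4).

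As a share of all catalytic transcript level per kilobase, Pik3cg made up 84.3% to 94.9% in the 4 scopolamine mice and 84.7% to 92.8% in the 4 sham mice. The share of Pik3ca was 3.31% ± 1.23 and 5.34% ± 3.38 (SD, n = 4), and that of Pik3cb 4.0% ± 2.13 and 4.68% ± 0.959. Without the 200 pg libraries the sham share of Pik3ca was 2.65%, below that with scopolamine. Pik3cd took 2.08% ± 1.54 and 0.0101% ± 0.0118. Thus per kilobase of the longest coding transcript the catalytic pool was at least 84.3% Pik3cg in every library. The mean share of Pik3cg was 89% with scopolamine and 87.2% in sham without length correction, and 88.2% and 86.9% with merged exons.

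RefSeq promoter windows (GRCm38.p6, 250 bases before to 50 after a start site) were found for 8 of the 9 members (not Pik3r6), in 14 windows. They are shown for the most abundant catalytic gene, for the most abundant member and for Pik3cd (the window of the most upstream of its 3 start sites), each on the strand of its gene, with capitals marking the letters of the only searched motif found in these 3 windows.
Pik3cg (chr12:32208610-32208909, minus strand): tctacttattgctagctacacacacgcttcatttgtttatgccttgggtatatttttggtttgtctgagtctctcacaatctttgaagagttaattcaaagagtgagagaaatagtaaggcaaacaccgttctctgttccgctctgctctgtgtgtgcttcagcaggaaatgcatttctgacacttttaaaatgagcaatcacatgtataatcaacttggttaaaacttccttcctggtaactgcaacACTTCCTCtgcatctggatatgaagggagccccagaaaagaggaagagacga
Pik3r5 (chr11:68431875-68432174, plus strand): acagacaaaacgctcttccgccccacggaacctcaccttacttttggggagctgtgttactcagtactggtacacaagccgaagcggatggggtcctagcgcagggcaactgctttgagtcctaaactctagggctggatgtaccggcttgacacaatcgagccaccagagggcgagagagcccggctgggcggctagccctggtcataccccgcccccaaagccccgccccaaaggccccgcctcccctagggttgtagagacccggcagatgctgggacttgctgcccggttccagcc
Pik3cd (chr4:149698659-149698958, minus strand): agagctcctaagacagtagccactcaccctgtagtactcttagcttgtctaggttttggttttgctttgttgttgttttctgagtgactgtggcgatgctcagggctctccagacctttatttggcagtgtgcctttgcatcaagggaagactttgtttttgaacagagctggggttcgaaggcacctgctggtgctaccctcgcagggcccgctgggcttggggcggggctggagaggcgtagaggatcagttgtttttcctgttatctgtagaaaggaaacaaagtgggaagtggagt

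The searched motifs were GAGGAAGT, the core bound by ETS factors of the PU.1 and SPIB type, ATGCNAAT, the octamer recognised by POU factors, and TATAAA, each on both strands. GAGGAAGT occurred on the opposite strand in both Pik3cg windows, which overlap and share this copy, and in none of the other 12 member windows, against 3.2% of all 32851 promoter windows. ATGCNAAT occurred in none of the 14 member windows and in 3.15% of all windows. TATAAA occurred in 1 of the Pik3r1 windows and in 13.6% of all windows. The Pik3cg window held 40.7% G and C and 4 CpG dinucleotides, the Pik3cd window shown 51.0% and 6, its other windows 54% and 4 and 68% and 26, and the Pik3r5 window 62% and 16, against medians of 52.7% and 7 over all windows. A motif match describes these letters only, and binding was not measured.

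Among the regulatory subunits, the class IB partner Pik3r5, which encodes p101, was the most abundant of all 9 members. Pik3r5 lies on the plus strand at chr11:68432121-68497849 and reached 879, 633, 1120 and 450 CPM with scopolamine and 558, 1060, 734 and 598 CPM in sham. The groups overlapped, and each held a mouse above 1000 CPM. Per kilobase it averaged 173 ± 55.5 CPM (SD, n = 8), above 97.4% of the genes with a count.

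Its neighbour Pik3r6, which encodes the alternative class IB adaptor p84 and lies at chr11:68503019-68552698 on the same strand, was close to absent. Pik3r6 had 1, 0, 7 and 1 counts with scopolamine and 0, 32, 0 and 0 counts in sham. Only scopolamine mouse 3 and sham mouse 2 passed the limit of detection. Pik3r5 therefore made up at least 99.9% of the class IB regulatory level per kilobase in each library.

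The class IA regulatory genes lay between these extremes. Pik3r2 (chr8:70768176-70776713, minus strand), which encodes p85beta, was at 57.5, 50, 55.8 and 35.2 CPM with scopolamine and at 26.4, 41.6, 52.4 and 33.6 CPM in sham. Pik3r1 (chr13:101680563-101768217, minus strand), which encodes p85alpha and its shorter forms, was at 28.2, 19.9, 50.8 and 22.8 CPM with scopolamine and at 14.8, 44.4, 34.4 and 27 CPM in sham. For both genes sham mouse 1 was the lowest of the 8 mice, and the groups overlapped. Pik3r3 (chr4:116221618-116303056, plus strand), which encodes p55gamma, was at 52.6, 13.3, 20.9 and 29.9 CPM with scopolamine and at 32.4, 41.6, 33.5 and 33.2 CPM in sham. The scopolamine mice spread on both sides of a narrow sham range. Pik3r3 shares 1289 bases of exon on its own strand with the gene model Gm49337, which had 138 counts in sham mouse 1 and at most 3 elsewhere, so that counts could have been split between them. Within the class IA regulatory level per kilobase, Pik3r2 made up 62.1% ± 8.86 with scopolamine and 52.3% ± 5.05 in sham, Pik3r3 21.3% ± 9.82 and 29.9% ± 5.84, and Pik3r1 16.6% ± 5.7 and 17.8% ± 4.24 (SD, n = 4). Without length correction the share of Pik3r1 was 27.5% and 28.1%, and that of Pik3r2 46.4% and 37% beside 26.1% and 35% for Pik3r3.

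**Figure D1:**
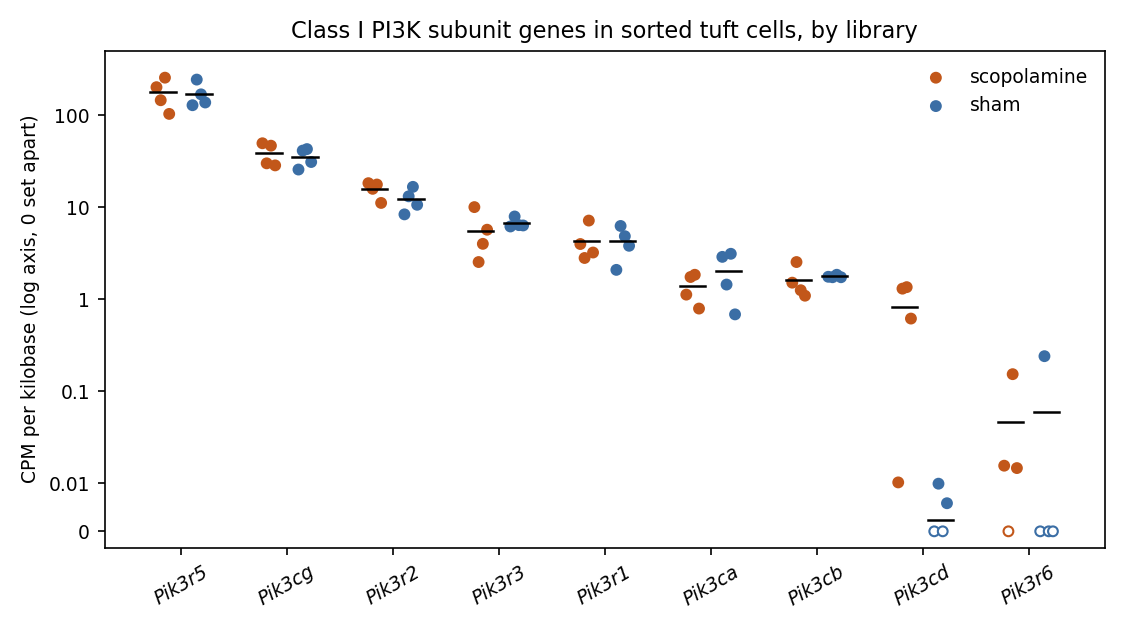
CPM per kilobase of the longest coding transcript (log axis) of each subunit gene, with 1 point for each mouse, orange for scopolamine and blue for sham, open points for a count of 0 set apart at the bottom, and bars for group means. Pik3r5 and Pik3cg lie on top in both groups, at 173 and 36.8 CPM per kilobase over all mice, and Pik3cd lies higher in 3 scopolamine mice than in all other mice.

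Ordered by mean level per kilobase over the 8 mice, the members ran Pik3r5, Pik3cg, Pik3r2, Pik3r3, Pik3r1, Pik3ca, Pik3cb, Pik3cd and Pik3r6. The lower end of this order differed by group. Pik3cd was at 0.819 with scopolamine and 0.00399 CPM per kilobase in sham, where Pik3r6 was at 0.0601, and Pik3ca was below Pik3cb with scopolamine (1.37 and 1.59) and above it in sham (2.03 and 1.76). The Pik3r6 mean in sham came from sham mouse 2 alone, and without the 200 pg libraries Pik3ca was below Pik3cb in sham too (2.65% and 4.55% of the catalytic level per kilobase). Neighbours in the order were compared within each library by exact two-sided sign-flip tests, with p adjusted over the 8 pairs. Pik3r5 exceeded Pik3cg in 8 of 8 libraries by 2.2 ± 0.245 on the log2 scale (SD, adjusted p = 0.0208, exact test, n = 8). Pik3cg exceeded Pik3r2 by 1.41 ± 0.228 and Pik3r2 exceeded Pik3r3 by 1.24 ± 0.771, each in 8 of 8 libraries with the same adjusted p in the exact test. The first 3 steps thus held in every mouse, and their p is the smallest the design allows (0.00781 before adjustment). Pik3r3 exceeded Pik3r1 in only 6 of 8 libraries (adjusted p = 0.146, exact test), and Pik3ca and Pik3cb could not be ordered, Pik3ca being higher in 3 of 8 libraries (adjusted p = 0.664, exact test). Pik3r1 exceeded Pik3ca and Pik3cb exceeded Pik3cd in 7 of 8 libraries (adjusted p = 0.025 for each, exact test), and Pik3cd did not differ detectably from Pik3r6 over all mice (adjusted p = 0.464, exact test). Several steps depended on the length used. With merged exons, Pik3r3 exceeded Pik3r1 in 7 of 8 libraries (adjusted p = 0.0375, exact test) and the step from Pik3r1 to Pik3ca did not pass (adjusted p = 0.0521, exact test). Without length correction, neither that step (adjusted p = 0.0781, exact test) nor that from Pik3r2 to Pik3r3 (7 of 8 libraries, adjusted p = 0.163, exact test) passed. With the median coding transcript, which is short for this gene, Pik3r2 averaged 54.2 and Pik3cg 46.7 CPM per kilobase, and Pik3r2 was the higher in 7 of 8 libraries.

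Class IB members (Pik3cg, Pik3r5 and Pik3r6) together made up 87.5% ± 2.0 of the level per kilobase of all 9 genes with scopolamine and 88.2% ± 1.57 in sham (SD, n = 4). Across the mice this share ran from 85.4% to 90.3%. The ratio of Pik3r5 to Pik3cg was 4.51 ± 0.828 with scopolamine and 4.82 ± 0.852 in sham, and that of class IA regulatory to class IA catalytic genes 7.62 ± 3.51 and 6.59 ± 2.45. These values depended on the length used. With the median coding transcript the class IB share was 68.5% and 70.3%, the ratio of Pik3r5 to Pik3cg 3.55 and 3.8, and the class IA ratio 17.9 and 14.9. Without length correction the ratios were 3.36 and 3.59 for class IB and 4.59 and 3.94 for class IA. In each class the regulatory level per kilobase exceeded the catalytic one, and both ratios overlapped between the groups.

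Within the class IA catalytic pool, the share of Pik3cd was high in 3 of the 4 scopolamine mice and in no sham mouse, a description without a test. Pik3cd made up 0.385%, 23.4%, 30.3% and 24.7% of the class IA catalytic level per kilobase in scopolamine mice 1 to 4, against 0%, 0.311%, 0% and 0.251% in sham mice 1 to 4. Per kilobase of the longest coding transcript, scopolamine mouse 3 had more Pik3cd than Pik3cb (30.3% against 28.2%). With merged exons or without length correction, Pik3cb exceeded Pik3cd in 8 of 8 libraries. In scopolamine mice 2 and 4 Pik3cd was the least of the 3 genes, and scopolamine mouse 1 was close to sham mice 2 and 4. As a share of all 4 catalytic genes, Pik3cd overlapped between the groups, at 0.0196% in scopolamine mouse 1 and 0.0223% in sham mouse 2. Pik3ca took 36.7% ± 6.1 of the pool with scopolamine and 49.7% ± 16.4 in sham (SD, n = 4), with 62.2% and 62.9% in sham mice 1 and 3, the 200 pg libraries, and 45.2% and 28.3% in the other sham mice. Pik3cb took 43.6% ± 11.9 and 50.2% ± 16.3, and the groups overlapped for both genes.

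**Figure D2:**
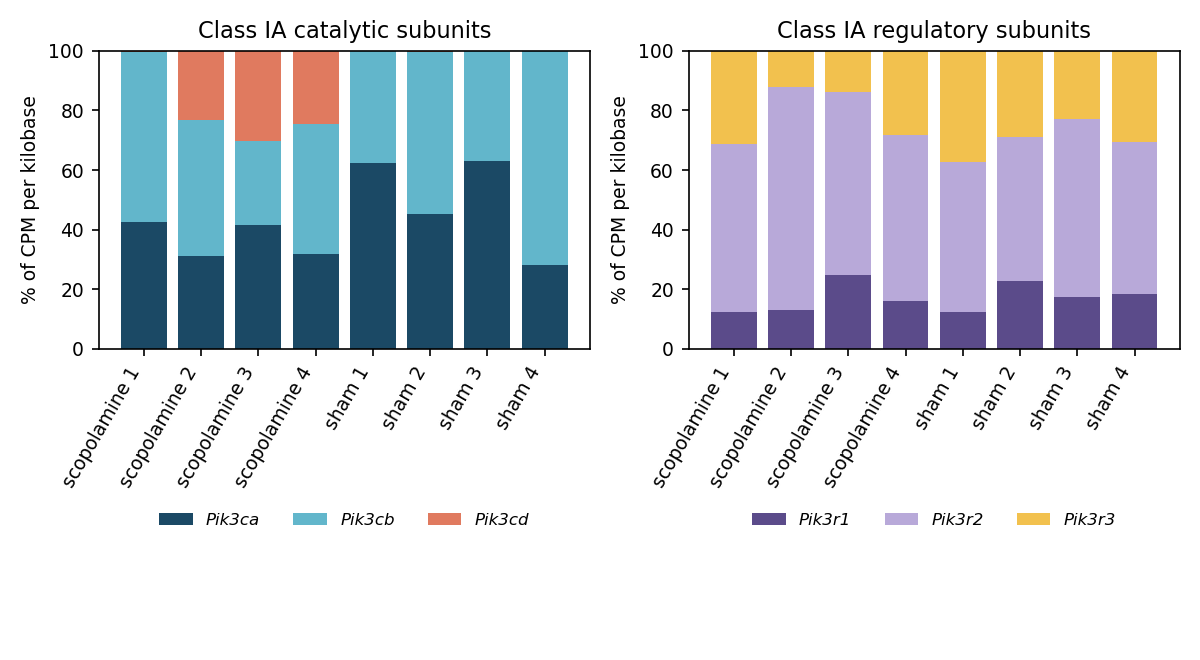
Share of each gene in the class IA catalytic level (left) and the class IA regulatory level (right), with 1 stacked bar for each mouse. Values are percent of CPM per kilobase of the longest coding transcript. Pik3cd is visible in scopolamine mice 2, 3 and 4 (23.4% to 30.3%) and at most 0.385% in the other mice, and Pik3r2 is the largest regulatory share in all 8 mice.

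No class I PI3K gene past the expression filter differed between the groups beyond the spread of the mice. In edgeR's quasi-likelihood test with Benjamini-Hochberg adjustment, 0 of the 7 members past the expression filter were called at an adjusted p under 0.1, where 0.0% of the 12849 genes tested were called. At an unadjusted p under 0.05 the count was 0 of 7, where 5.99% of genes passed. Of these 7 members 4 had a higher and 3 a lower mean with scopolamine, and their median log2 fold change was 0.013, beside -0.011 for all genes. The groups of CPM overlapped in all 7, while 3.88% of all genes past the filter did not overlap.

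The intervals show how large a change could have gone unseen. Pik3cg differed by 0.14 ± 0.23 on the log2 scale (edgeR, SE, adjusted p = 0.953), so that 2 standard errors ran from -0.33 to 0.61. Pik3r5 differed by 0.06 ± 0.29 (adjusted p = 0.991, edgeR), with 2 standard errors from -0.51 to 0.63. For the class IB pair, log2 changes below -0.51 or above 0.63 therefore lay outside both intervals. Pik3r2 had the highest fold change of the 7, 0.37 ± 0.26 (adjusted p = 0.859, edgeR), from 38.5 ± 11.2 CPM in sham to 49.7 ± 10.1 CPM with scopolamine (SD, n = 4). Pik3ca had the lowest, -0.56 ± 0.51 (adjusted p = 0.884, edgeR), from 18.1 ± 10.4 to 12.3 ± 4.49 CPM. When sham mice 1 and 3 were left out, the sign of Pik3ca turned, to 0.36. The other 3 lay between these, Pik3cb at -0.14 ± 0.41, Pik3r1 at 0.013 ± 0.39 and Pik3r3 at -0.27 ± 0.37.

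**Figure D3:**
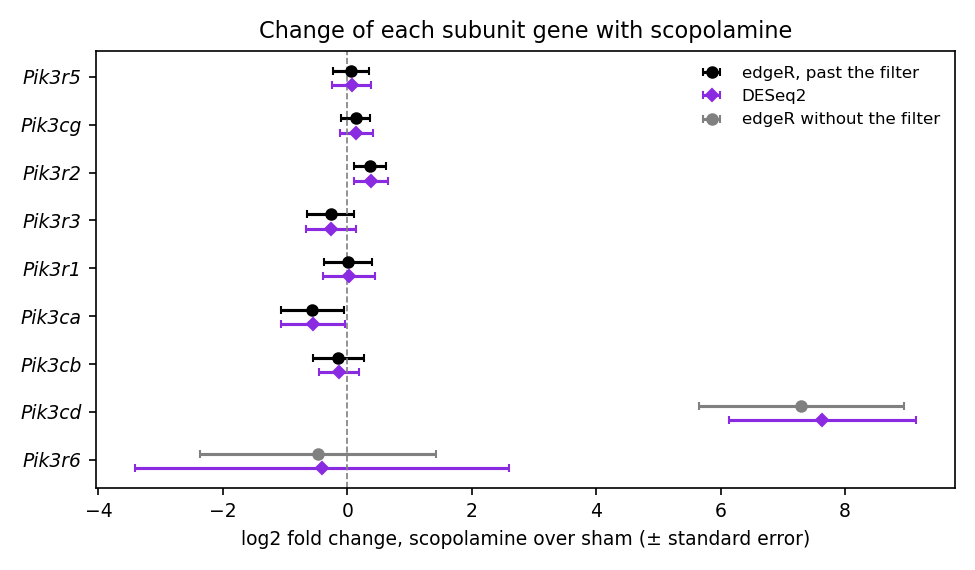
Log2 fold change, scopolamine over sham, of each subunit gene with its standard error, from edgeR (black, or grey for genes read from the fit without the expression filter) and DESeq2 (violet diamonds). The 7 genes past the filter lie between -0.56 and 0.37 in edgeR, and Pik3cd stands apart at 7.30 and 7.63.

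Pik3cd and Pik3r6 did not pass the filter, since neither had enough counts in 4 libraries, and were read from the fit without it. Pik3cd was 7.30 ± 1.64 higher on the log2 scale (edgeR, SE, unadjusted p = 0.000687, adjusted p = 0.587), a fitted value that depends on the prior count where sham counts are near 0. This was 1 of 9 members at an unadjusted p under 0.05, where 5.54% of the 21805 genes with a count passed in this direction, and 0 of 9 at an adjusted p under 0.1, where 0.0% passed. DESeq2, the tool used in the study, gave 7.63 ± 1.5 with an adjusted p of 0.000355. It called 1 of the 8 members to which it gave an adjusted p, where it called 1.35% of 14307 genes in either direction and 1.01% as higher with scopolamine. The call on Pik3cd thus depended on the tool. Its direction was the same in all 15 alternative fits, from 5.93 to 8.03 on the log2 scale, with adjusted p from 0.246 to 0.864 in those made with edgeR or limma-voom. Pik3r6 differed by -0.47 ± 1.90 (adjusted p = 0.97, edgeR), and its few counts could not show a difference.

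The Pik3cd CPM did not overlap between the groups, as was so for 2.76% of all genes with a count (exact two-sided permutation test, p = 0.0286, the smallest that 4 against 4 mice allow). This separation was decided by 1 count of 20327680 in scopolamine mouse 1 against 2 counts of 40426059 in sham mouse 2. Since all sham mice were at or under the limit of detection, the fold is a lower bound on the sham side only. Against 3 counts in each sham library, the scopolamine mean of 4.03 ± 3.12 CPM (SD, n = 4) was at least 46-fold higher. Leaving out each scopolamine mouse in turn gave at least 36.1-fold to 61.2-fold. These folds leave out the spread of the scopolamine mice, of which mouse 1 was itself under the limit of detection. In edgeR, 2 standard errors of the log2 fold change ran from 4.01 to 10.6. The study had named Pik3cd among its leading genes from these same libraries, so that its direction here is not independent evidence.

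The Pik3cd values were also set beside the markers of other cells, p110delta being abundant in lymphocytes, although the sort had been gated on Live/EPC-high ZSgreen-positive cells. In bulk samples fewer cells of a type and less RNA per cell cannot be told apart. The summed T cell and intraepithelial lymphocyte markers were 58.7, 140, 30.9 and 32.4 CPM in scopolamine mice 1 to 4 and 167, 7.39, 12.1 and 5.67 CPM in sham mice 1 to 4. Sham mouse 1 had the highest sum of all 8 and a Pik3cd count of 0, and 3 of 4 sham mice were below every scopolamine mouse. Of these 14 markers 10 passed the filter, 8 with a higher and 2 with a lower mean with scopolamine, and 0 were called by edgeR or DESeq2. The 12 B cell and myeloid markers summed to 11 to 35.3 CPM with scopolamine and 22.5 to 37.9 CPM in sham, with Tpsab1 at 0 throughout. The 10 enterocyte markers summed to 3270, 6940, 6230 and 3460 CPM with scopolamine and to 6630, 2550, 2660 and 2550 CPM in sham. They were higher in scopolamine mice 2 and 3, which had the most Pik3cd, and in sham mouse 1, which had none. All 10 enterocyte markers and all 10 goblet and Paneth markers had a higher mean with scopolamine, with sums of 693 to 3530 and 340 to 1350 CPM for the latter. The 10 enteroendocrine markers summed to 385 to 1060 and 179 to 1050 CPM, and 8 of the 9 past the filter had a higher mean with scopolamine. Of these 3 lists edgeR called 0 markers, as it called 0.0% of all genes, and DESeq2 called 1 enterocyte and 1 enteroendocrine marker, beside 1.35% of all genes. The 6 stem and cycling markers summed to 142 to 253 and 175 to 258 CPM. The part of these cells in the Pik3cd difference was not tested.

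**Figure D4:**
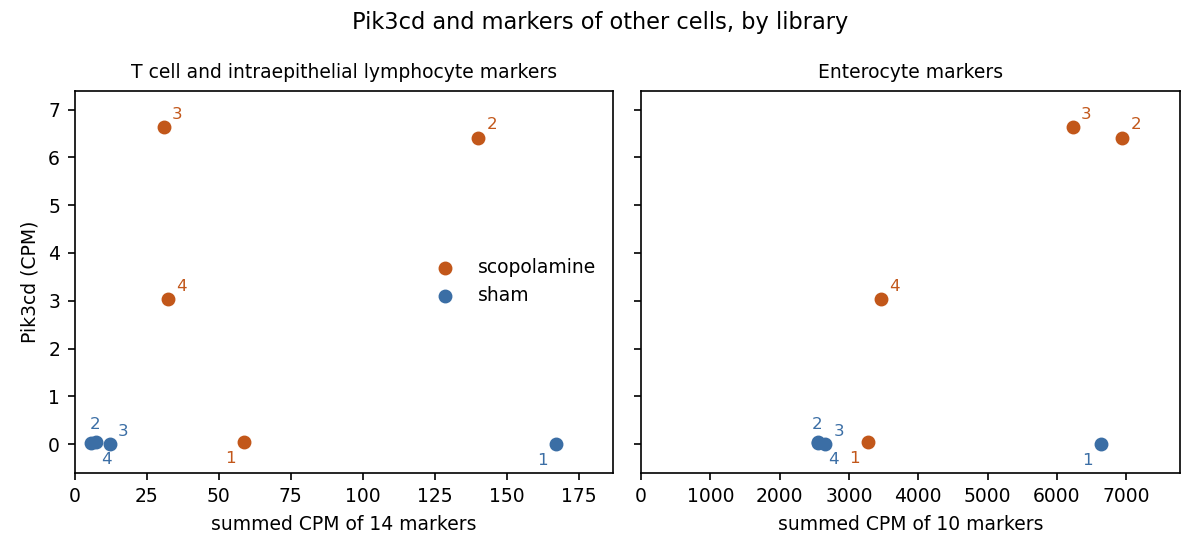
Pik3cd CPM (vertical axis) against the summed CPM of 14 T cell and intraepithelial lymphocyte markers (left) and of 10 enterocyte markers (right), with 1 numbered point for each mouse. Scopolamine mouse 2 has high sums (140 and 6940 CPM) with Pik3cd at 6.41 CPM, sham mouse 1 has high sums (167 and 6630 CPM) with Pik3cd at 0, scopolamine mice 3 and 4 have Pik3cd at 6.63 and 3.03 CPM with T cell sums of 30.9 and 32.4 CPM, and sham mice 2 to 4 have the lowest sums with Pik3cd at most 0.0486 CPM.

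Pik3cd was also compared within strata of mouse ID, RNA input and cell number. Among the mice whose ID carries the letter M, Pik3cd averaged 4.36 CPM in 3 scopolamine mice and 0 in the only sham mouse. Among those with the letter N it was 3.03 CPM in the only scopolamine mouse and 0.0261 CPM in 3 sham mice. Among libraries made from 1000 pg it was 4.03 CPM in 4 scopolamine mice and 0.0392 CPM in 2 sham mice. Among libraries from 4000 cells it was 5.36 and 0.0261 CPM, in 3 mice each. Only the pair of libraries from 3000 cells, scopolamine mouse 1 and sham mouse 1, lacked the gene on both sides, at 0.0501 and 0 CPM. Pik3cg, Pik3r5, Pik3r1 and Pik3r2 differed in opposite directions within the ID letters. Pik3cg was at 246 against 150 CPM within M and at 167 against 224 CPM within N, and Pik3r5 at 876 against 558 and at 450 against 798 CPM. Pik3r1 was at 33 against 14.8 and at 22.8 against 35.3 CPM, and Pik3r2 at 54.5 against 26.4 and at 35.2 against 42.5 CPM, each with a single mouse in one of the groups. The only sham mouse with the letter M was sham mouse 1, whose library came from 3000 cells and 200 pg of RNA. Letter, RNA input and cell number cannot be told apart in that mouse.

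The genes whose pattern over the 8 mice was most like that of Pik3cg were Fam172a, Slc44a3 and Gpr108. Their root mean square difference from it in mean-centred log2 CPM was 0.0933, 0.117 and 0.133, against a median of 0.638 over 12848 genes. For Pik3cd the nearest were Rgn, Akr1c14 and Abcg2, at 1.24, 1.34 and 1.39 against a median of 2.86. These distances scale with the spread of the gene itself, whose root mean square over the mice was 0.339 for Pik3cg and 2.81 for Pik3cd.

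The wider PI3K pathway was read from a list of 83 genes, of which 76 passed the filter. In edgeR 0 of the 76 were called at an adjusted p under 0.1, and 5 had an unadjusted p under 0.05 (2 higher and 3 lower), beside the 5.99% of all genes. The mean was higher with scopolamine in 42 and lower in 34, with a median log2 fold change of 0.033 beside -0.011 for all genes. DESeq2 called 3 of them, Tns2 as higher and Pik3c3 and Hras as lower with scopolamine, beside 1.35% of all genes it tested. The CPM of 5 of the 76 did not overlap between groups, beside 3.88% of all genes past the filter.

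Among 14 lipid phosphatases and inhibitors of the pathway, 12 passed the filter and 7 had a higher mean. Tns2, which encodes a tensin with a phosphatase-like domain that restrains AKT signalling, had 68, 12, 50 and 49 counts with scopolamine and 0, 4, 0 and 0 in sham. All scopolamine mice thus exceeded every sham mouse, scopolamine mouse 2 by the least. The log2 fold change of Tns2 was 6.32 ± 1.40 (edgeR, SE, unadjusted p = 0.000978, adjusted p = 0.812, and DESeq2 adjusted p = 0.000669), a fitted value that depends on the prior count, since 3 of 4 sham mice were at 0. The gene passed the filter only through the scopolamine group. Like Pik3cd, this gene was singled out by the study on these libraries. Inpp5d, which encodes the PIP3 phosphatase SHIP1, had the highest mean CPM of this list, at 339 ± 42.5 CPM with scopolamine and 347 ± 29.3 CPM in sham (SD, n = 4).

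Of 20 PIP3 effectors 19 passed the filter, 11 with a higher mean, and none had an unadjusted p under 0.05 in edgeR or was called by DESeq2. Vav1, an exchange factor best known from leukocytes, was at 613 ± 149 and 608 ± 137 CPM, and Plcg2, a phospholipase C gene named after its values were seen, had the same mean over the 8 mice (611 CPM). Bmx, a TEC family kinase with a PIP3-binding domain, had the smallest p of this group, at 318 ± 93.3 and 391 ± 26 CPM (log2 fold change -0.30, edgeR adjusted p = 0.851).

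All 20 genes of the AKT and mTOR axis passed the filter, 11 with a higher mean. Bad, which encodes a pro-apoptotic protein held inactive when AKT phosphorylates it, was at 218 ± 39.6 CPM with scopolamine and 320 ± 47.1 CPM in sham (log2 fold change -0.55 ± 0.17, unadjusted p = 0.00858, adjusted p = 0.812, edgeR). Its groups did not overlap. Rps6, the ribosomal protein phosphorylated downstream of mTORC1, had the highest mean CPM of this group, at 399 ± 52 and 451 ± 48.4 CPM.

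Of 21 receptors and adaptors upstream 17 passed the filter, 8 with a higher mean. Hras, which encodes a small GTPase that binds class I catalytic subunits, was at 145 ± 4.58 CPM with scopolamine and 186 ± 15.7 CPM in sham (log2 fold change -0.35 ± 0.13, edgeR unadjusted p = 0.0206, adjusted p = 0.812, and DESeq2 adjusted p = 0.0996). Gnb2, a G protein beta subunit, was at 291 ± 42.7 and 307 ± 112 CPM.

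The class II and class III PI3K genes were 8 in number and all passed the filter. Pik3c3, which encodes the class III kinase VPS34 of endosomes and autophagy, had 188, 266, 190 and 326 counts with scopolamine and 618, 757, 1056 and 887 in sham, at 12.7 ± 2.5 against 23.6 ± 3.73 CPM (SD, n = 4). Its groups did not overlap, and the log2 fold change was -0.90 ± 0.30 (edgeR unadjusted p = 0.0134, adjusted p = 0.812, and DESeq2 adjusted p = 0.0374). Pik3r4, which encodes the VPS15 partner of this kinase, was named after its values were seen. It had 198, 239, 268 and 282 counts with scopolamine and 18, 132, 190 and 233 in sham, at 13.3 ± 3.97 against 3.89 ± 2.63 CPM, again without overlap (log2 fold change 1.78 ± 0.66, edgeR unadjusted p = 0.0216, adjusted p = 0.812, and DESeq2 adjusted p = 0.166). Becn1, a further subunit of that complex with the highest mean CPM of the group, was at 141 ± 38.4 and 142 ± 19.3 CPM.

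**Figure D5:**
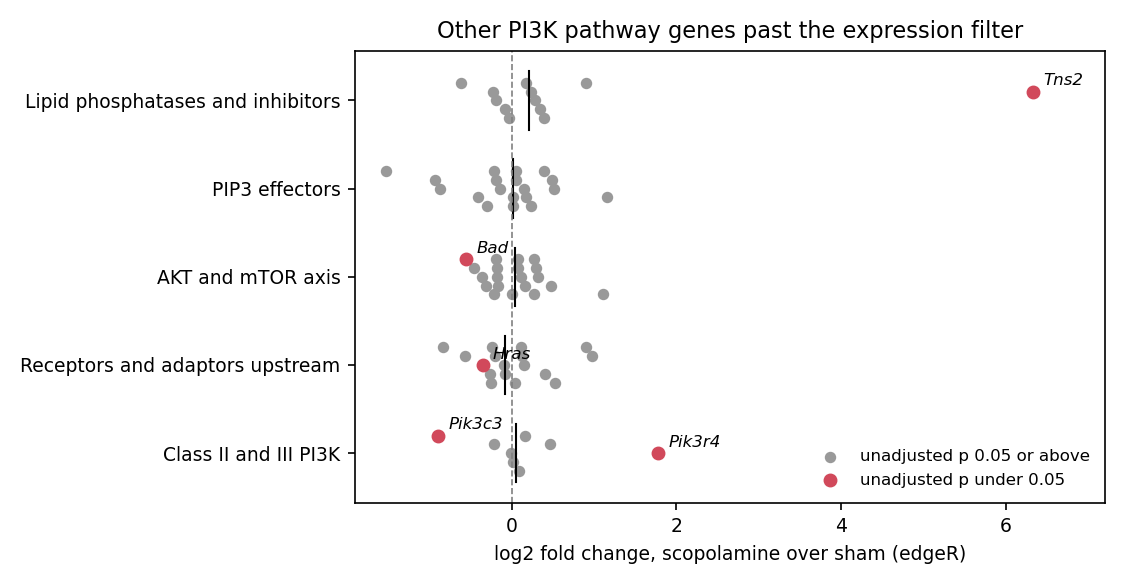
Log2 fold change (edgeR), scopolamine over sham, of the 76 other PI3K pathway genes past the filter, with 1 point for each gene in 5 groups, black bars for the group medians and red for an unadjusted p under 0.05. Most points lie around 0, with Tns2 far to the right at 6.32, Pik3r4 at 1.78 and Pik3c3 at -0.90.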

How the data were processed

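RNA from sorted tuft cells of 8 mice was amplified (Clontech Ultra Low v4) and sequenced after Nextera XT preparation. Per the labels and the study's methods, the authors converted base calls with bcl2fastq 2.20 and assigned reads to GRCm38 transcripts with kallisto 0.44.0, summed per gene with tximport. The deposited values are estimated counts per gene without normalization, whole numbers in the file, so that rounding changed none. The annotation release and use of strand are not given in the sources used here. RNA input and cycles came from the study's source data. The limit of detection covers counting error only.

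CPM used TMM-scaled library sizes. Levels per kilobase used GENCODE M21 transcripts (GRCm38), in which 34902 of 35199 symbols matched 1 gene, 54 several and 243 none. The main comparison was the quasi-likelihood test of edgeR 4.0.16 (R 4.3.3) on genes kept by filterByExpr, with p adjusted by Benjamini-Hochberg and called under 0.1. This test gives no standard error, so the absolute log2 fold change was divided by the square root of the F statistic. These standard errors are approximate, most of all for Pik3cd and Tns2, where the prior count shapes the fold change. For single values, all 70 assignments of the mice were enumerated in an exact permutation test, and for neighbouring members all 256 sign flips. Log2 CPM used a prior count of 2, and the sign-flip ratios 0.5 added counts.

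As alternatives, the test was replaced by DESeq2 1.42.0 or by limma-voom from limma 3.58.1. TMM was replaced by the size factors of DESeq2 or by unscaled totals, and the filter by none or by a minimum of 10 counts in all libraries. The threshold was set to 0.05, amplification cycles or the mouse ID letter were added as covariates, and each mouse, or the libraries from 200 pg, were left out. Other transcript lengths were also used. Other gene lengths for the level order and for the class IB share, the unfiltered reading of Pik3cd and Pik3r6 and the strata were chosen after seeing the data. The tests were tested on simulated data with 200 changed genes. The members, lists and tests were chosen with earlier results of these data known.

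Named genes are all 9 members, 3 tuft markers, in each pathway list the gene with the smallest p and that with the highest mean CPM, every pathway gene past the threshold, and the 3 genes most like the most abundant catalytic member and any member called by edgeR or DESeq2. Pik3r4, Plcg2, Gm49337 and Tpsab1 fall outside this rule and were named after their values were seen. Replicates were numbered within groups in accession order, and no pair of libraries agreed within sampling noise (smallest chi-square per degree of freedom within groups 67.5).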

Additional observations from a re-analysis of the deposited data

Results flagged for a closer look

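A library far from the other 3 of its group was found in 4 of the 44 groups of member values examined by Dixon's criterion at the 95% level, and chance flags about 1 in 20 groups. Pik3cb was at 11.9 CPM in sham mouse 3, with the other sham mice at 11.2 to 11.3 CPM. Pik3r3 was at 41.6 CPM in sham mouse 2, with the others at 32.4 to 33.5 CPM. Pik3r6 was at 0.494 CPM in scopolamine mouse 3 (7 counts, at most 1 in the others) and at 0.778 CPM in sham mouse 2 (32 counts, 0 in the others).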

How the results depend on the processing

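Over all genes, 0 were called by edgeR, 193 by DESeq2, 9 without the 200 pg libraries, 5 with amplification cycles as a covariate and 0 to 2 when each mouse was left out. Called members numbered 0 in all alternatives except DESeq2 (1, Pik3cd), and pathway genes 0 except in DESeq2 (3). Of 149 alternative log2 fold changes of members, 21 had the opposite sign and none of those was called; the causes were not tested. Without the 200 pg libraries and with cycles as a covariate, these were Pik3ca (0.36 and 0.37), Pik3r1 (-0.25 and -0.23) and Pik3r5 (-0.12 and -0.11). In limma-voom they were Pik3r1 (-0.12), Pik3r5 (-0.0044) and Pik3r6 (1.42), without a filter Pik3r1 (-0.019), and with the mouse ID letter Pik3r5 (-0.088) and Pik3r6 (0.62). Leaving out each mouse gave -0.0089 to 0.25 for Pik3cg, -0.35 to 0.26 for Pik3r1, -0.18 to 0.29 for Pik3r5 and -2.47 to 4.88 for Pik3r6, the last without sham mouse 2. The sign held for Pik3ca (-0.85 to -0.28), Pik3cb (-0.47 to -0.0071), Pik3r2 (0.22 to 0.55) and Pik3r3 (-0.72 to -0.035). With the median coding transcript the class IB share of all members was 68.5% with scopolamine and 70.3% in sham, an alternative chosen after seeing the data. The ratio of class IA regulatory to catalytic genes was 17.9 with scopolamine and 14.9 in sham with the median coding transcript and 3.94 in sham without length correction, where 3 neighbour pairs in the order of levels kept an adjusted p under 0.05. No paired analysis was possible because the labels share no replicate numbers between the groups. Pik3cd and Pik3r6 were limited by few counts, which were at or under 3 in 5 and 6 of 8 libraries. The part of depth in this was not tested.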
